A study of Drosophila melanogaster with 12 samples.

Results

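f-cup (flyers-cup, CG9611) is described as a gene of the Drosophila male germ line. It was selected on its measured level in these arrays, which was higher in rapamycin-fed control larvae. It is 1 of 25842 genes and other targets of the array, and was measured by 1 of the 32162 probes of the array, a probe named in the array design by the cDNA clone GH09045 and matched to f-cup through the RefSeq gene table. The clone prefix GH belongs to a cDNA library made from adult heads. f-cup lies on chromosome arm 3R and has 9 RefSeq transcripts, which encode leucine-rich repeat proteins. The position of the probe within the gene was not analysed here, so the transcripts could not be measured apart. The annotated spans of 2 neighbours, CG14367 and ninaB (the carotenoid oxygenase that makes retinal), overlap that of f-cup, and no probe carried the name of either or of the next genes on each side (omd, flfl, Adgf-D and Adgf-C). RNA of an overlapping neighbour reaching the probe was not tested.

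The study measured RNA of Drosophila melanogaster larvae on 12 one-colour Agilent arrays, 3 in each of 4 groups that the series describes as biological replicates. Control larvae (w1118) and larvae with a knockout of REPTOR were fed for 6 h either rapamycin at 200 µM or ethanol, the solvent, at the matching concentration. All 12 samples were synchronized larvae taken 48 h prewandering, and all carry the label female. The labels used here give neither the knockout allele nor the number of larvae pooled into a sample, and no probe was named REPTOR, so the genotype labels could not be checked on the targeted gene.

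The comet and cup genes, to which f-cup belongs, are known for being transcribed unusually late in the male germ line, after meiosis, with transcripts that gather at the distal ends of elongating spermatids. Most other spermatogenesis genes are transcribed earlier, in spermatocytes, under the testis meiotic arrest complex. Rapamycin inhibits the kinase complex TORC1, and REPTOR is a bZIP transcription factor that TORC1 holds in the cytoplasm while nutrients are plentiful and that acts with its partner REPTOR-BP once TORC1 activity drops. The noncoding RNAs roX1 and roX2 belong to the dosage compensation complex that coats the male X chromosome, and they serve as a measure of male tissue in a sample.

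Each array carried 43602 spots, of which 72.5% to 82.7% were well above background, and none was saturated. The labelled sex was not matched by every array. The brighter roX2 probe was well above background on 4 of the 12 arrays, all of them rapamycin arrays: control rapamycin 3 and knockout rapamycin 1, 2 and 3. Both roX2 probes passed on 3 of these, control rapamycin 3 and knockout rapamycin 1 and 2, and the values of f-cup without those 3 arrays are given with the male signal. Array slides and groups were partly confounded: slide 1 held the 3 control ethanol arrays and control rapamycin 1, slide 2 held control rapamycin 2 and 3 and knockout ethanol 1 and 2, and slide 3 held knockout ethanol 3 and the 3 knockout rapamycin arrays. None of the listed markers of fat body (7 genes), gut (5), muscle (5), neurons (4) or ovary (8) had a named probe, so the labelled source was not checked through them.

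The description of f-cup as a testis gene was set against these arrays. The f-cup spot was well above background on all 12 arrays, and its median signal was 48.7 to 215 times the local background. It was therefore measured on the 8 arrays where neither roX2 probe was above background. These 8 arrays were not without roX1, which was well above background on all 12. Of the 17 comet and cup genes listed, f-cup was the only one with a named probe, so the family could not be described. Of 44 listed genes of spermatid differentiation, 1 was named, Prosalpha3T, a testis form of a proteasome core subunit. A probe counted as well above background on an array only if all its spots there were. By that rule Prosalpha3T was not well above background on any array, though 1 of its spots passed on knockout ethanol 1. Of 12 listed regulators of testis transcription, 1 was named, wuc (wake-up-call), a testis relative of lin-52 that acts with the meiotic arrest complex. wuc was well above background on 3 arrays, control rapamycin 3 and knockout rapamycin 1 and 2, and on none of the other 9. The 3 arrays with wuc were the 3 with both roX2 probes, whereas f-cup was measured on every array. The f-cup signal was thus not limited to the arrays with wuc or roX2 signal, and the tissue it came from was not measured.

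All levels are given as log2 signal after subtraction of the 75th percentile of each array. In control larvae on ethanol, the f-cup level was -0.29 on each of the 3 arrays (mean -0.29 ± 0.0045, SD, n = 3). In control larvae on rapamycin it was 1.23, 1.29 and 1.35 (mean 1.29 ± 0.061, SD, n = 3). The 3 rapamycin arrays of the controls were the 3 highest of the 12, and the gap to the next array was wider than the whole range of the other groups. In knockout larvae on ethanol the level was -0.38, -0.38 and -0.40 (mean -0.39 ± 0.011, SD, n = 3). In knockout larvae on rapamycin it was -0.0052, -0.18 and -0.24 (mean -0.14 ± 0.12, SD, n = 3). These 3 arrays lay above the ethanol arrays of both genotypes and below every control rapamycin array.

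The groups thus stood in the order control rapamycin, knockout rapamycin, control ethanol, knockout ethanol, with no overlap between neighbours on this scale. The order and the lack of overlap were the same after quantile normalisation, after normexp correction of the median signal followed by quantile normalisation, and in the authors' deposited value table. The ethanol groups came close, however. Their nearest arrays, knockout and then control, stood at 10.145 and 10.166 with normexp, and at 10.039 and 10.049 (log2) in the deposited table. With arrays centred on their medians, or with no scaling, the knockout rapamycin arrays overlapped both ethanol groups, whereas the control rapamycin arrays remained above the other 9 under each of these scalings. As unscaled processed signals, the control arrays read 1228, 1322 and 1262 on ethanol and 3574, 3798 and 3540 on rapamycin. The knockout arrays read 1190.1, 1279 and 1165 on ethanol and 1810.3, 1329 and 1256 on rapamycin. On this raw scale the control rapamycin arrays were again apart from all others, and knockout rapamycin 1 and 2 were above every ethanol array and knockout rapamycin 3 was among them. On knockout rapamycin 1 the local background around the f-cup spot was marked as not uniform, while the spot itself carried no outlier mark.

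**Figure D1:**
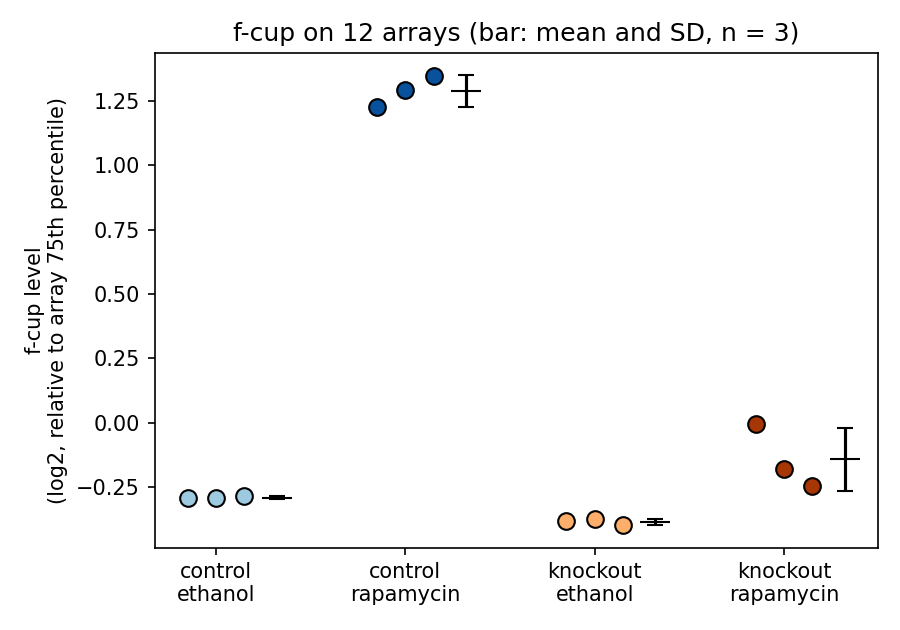
f-cup level (y axis, log2 signal relative to the array's 75th percentile) in the 4 groups of 3 arrays (x axis), with points for arrays and bars for the group mean and SD. The control rapamycin arrays sit between 1.23 and 1.35, above the other 9, which lie between -0.40 and -0.0052.

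The difference between rapamycin and ethanol in control larvae is the response for which f-cup was chosen, so it is given as a description with no test. f-cup was higher by 1.58 ± 0.07 (log2, SE of the limma fit over 12 arrays), which is 2.99-fold. Against the control ethanol mean, the 3 rapamycin arrays stood at 2.86, 3.00 and 3.11-fold, so that they differed little among themselves. Within slide 1, which held control ethanol and 1 rapamycin array, the difference was 1.52. Among all 18757 targets tested, 43.1% were called different between these groups at an adjusted p of 0.05 (limma, Benjamini-Hochberg), 21.3% higher on rapamycin and 21.8% lower. On 29.5% of targets every control rapamycin array was above every control ethanol array, as for f-cup. A larger increase than that of f-cup was estimated for 494 targets, 2.63% of those tested, and for 3 of the 148 tested targets with a gene symbol other than a CG number. In larval RNA from many tissues, more cells that express f-cup and more f-cup RNA per cell cannot be told apart.

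In knockout larvae, f-cup differed between rapamycin and ethanol by 0.24 ± 0.07 (log2, SE), a 1.18-fold difference, but by -0.10 with arrays centred on their medians. The centring moved the median of all targets from 0.01 to -0.33 in the knockout and from 0.05 to -0.18 in the controls. Relative to that median f-cup stood higher by 0.23 in the knockout and 1.53 in the controls under both scalings. Both scalings subtract a single value per array, so this distance is the same under either by construction. Against the knockout ethanol mean, the 3 rapamycin arrays stood at 1.30, 1.15 and 1.10-fold. All 3 were below the lowest control array, which stood at 2.86-fold. In this contrast 15.3% of targets were called different, 6.35% higher and 8.92% lower, and 22.7% of targets had a larger estimated increase than f-cup. Every knockout rapamycin array was above every knockout ethanol array on 17% of targets, as for f-cup. With median centring, the share of higher targets among those called was 21.9% in place of 49.3% in the controls and 6.55% in place of 41.6% in the knockout. Within slide 3, which held 1 knockout ethanol and 3 knockout rapamycin arrays, f-cup differed by 0.26.

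The rapamycin difference of f-cup was smaller in the knockout by 1.34 on the log2 scale (knockout minus control -1.34 ± 0.10, SE). The knockout difference was 15.4% of the control difference in log2 units and 9.21% of it in linear fold over ethanol. Again without a test for f-cup, 14.6% of all targets were called in this comparison, 7.99% with the lower response in the knockout, as for f-cup, and 6.63% with the higher, and 371 targets had a lower estimate than f-cup. Of the 495 targets whose estimate in controls was at least that of f-cup, f-cup included, 394 had a larger estimated difference in the knockout than f-cup and 101 had one as small or smaller. Between the genotypes on rapamycin, f-cup was lower in the knockout by -1.43 ± 0.07 (log2, SE), a fold of 0.37, where 27.9% of targets were called, 14.9% lower and 12.9% higher. Each control rapamycin array was above each knockout rapamycin array for f-cup, as for 23.9% of targets. No slide held rapamycin arrays of both genotypes.

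**Figure D2:**
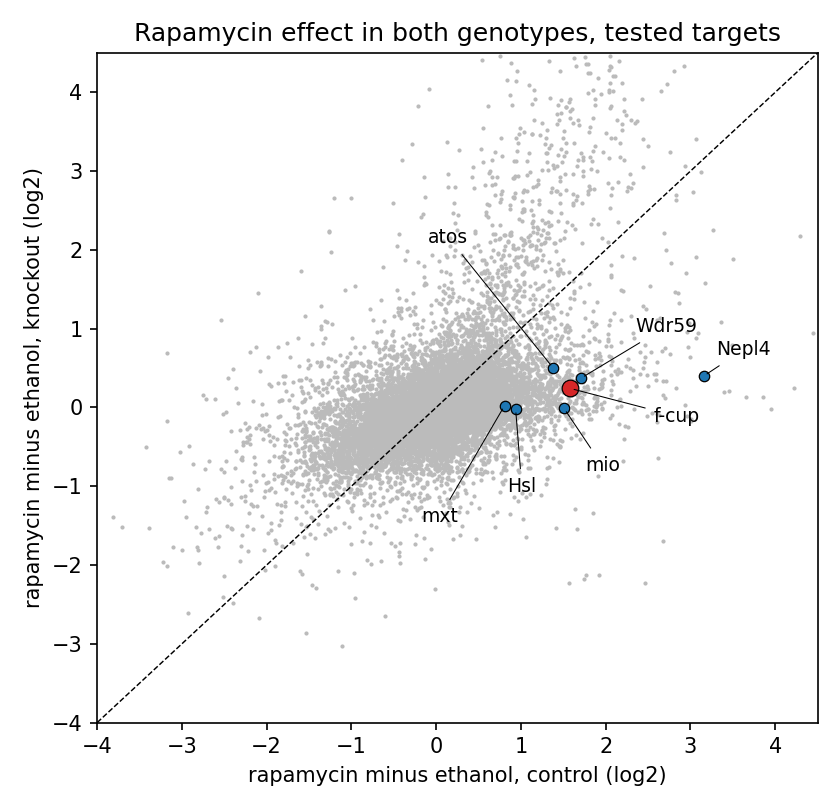
Rapamycin minus ethanol (log2) in control larvae (x axis) and in knockout larvae (y axis) for the tested targets, of which 18615 are drawn and 142 lie outside the axes, with the dashed line marking equal differences. f-cup (red) lies at 1.58 and 0.24, below the line, away from the targets with high values in the knockout and near Wdr59 and mio (blue). With median centring the f-cup value in the knockout is -0.10.

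The genotypes on ethanol food are another contrast than the rapamycin response that f-cup was selected on. It shares the 3 control ethanol arrays with that response, so its p-values are not independent of the choice. f-cup differed by -0.09 ± 0.07 (log2, SE, knockout minus control), with a 95% interval of -0.25 to 0.06, and limma gave an adjusted p of 0.411. The 3 knockout arrays lay below the 3 control arrays on the percentile scale, as on 15.9% of all targets, and the 2 groups overlapped with no scaling. The exact two-sided permutation test gave p = 0.1, the smallest that 3 arrays against 3 can give. In all, 6.33% of targets were called in this comparison, 2.91% higher and 3.42% lower in the knockout. The difference of f-cup between genotypes on ethanol thus did not pass the limma test, and the interval leaves room for a decrease of up to 0.25. The SE and interval use a spread pooled over all groups. The SD was 0.0045 and 0.011 in the ethanol groups of controls and knockout, and 0.12 in knockout rapamycin, which is not in this contrast. Without knockout rapamycin 1 the SE was 0.05 and the adjusted p 0.265 by limma. No slide held both ethanol groups.

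The f-cup level was then set against the male signal array by array. roX1 was well above background on all 12 arrays with each of its 4 probes, and is given here by its brightest probe. The roX1 level was -0.17, -0.80 and -0.13 in control ethanol, 0.17, 0.43 and 3.35 in control rapamycin, -1.39, -1.57 and -1.46 in knockout ethanol, and 3.88, 2.91 and -0.47 in knockout rapamycin. The high arrays were control rapamycin 3 and knockout rapamycin 1 and 2. The roX2 level was -8.74, -8.68 and -1.29 in control rapamycin and 0.0084, -1.10 and -5.83 in knockout rapamycin, and between -9.06 and -6.90 on the 6 ethanol arrays, where it was not well above background. The same 3 arrays were thus high for both RNAs, and f-cup did not follow them across groups. The 3 highest f-cup arrays held 1 of the 3. Knockout rapamycin 1, with the highest roX1 and roX2 levels of all, had an f-cup level below that of every control rapamycin array. Comparisons across groups include the rapamycin response that f-cup was selected on, so they cannot separate it from male signal.

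wuc and the targets named by clones of the adult testis library were high on the same 3 arrays as the roX RNAs, and Prosalpha3T was not. wuc stood at -3.28 on control rapamycin 3, at -2.78 on knockout rapamycin 1 and at -4.25 on knockout rapamycin 2, and between -9.17 and -8.74 on the 9 arrays where it was not well above background. Prosalpha3T stood at -8.02, -8.25 and -8.97 on these 3 arrays and between -8.85 and -7.29 on the other 9, on none with all its spots well above background. The adult testis library named 128 targets, wuc among them, and all 128 are counted here, of which 67 passed the filter for testing. Their median level was -4.54 on control rapamycin 3, -3.69 on knockout rapamycin 1 and -5.12 on knockout rapamycin 2, and between -7.67 and -6.70 on the other 9 arrays. On those 9 arrays f-cup stood between -0.40 and 1.29. The share of the 128 well above background was 79.7%, 85.9% and 74.2% on those 3 arrays and 42.2% to 53.1% on the others. The share of all spots well above background was also highest on those 3 arrays, at 82.65%, 81.79% and 79.26%. On the other 9 arrays that share of all spots was 72.47% to 77.03%.

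**Figure D3:**
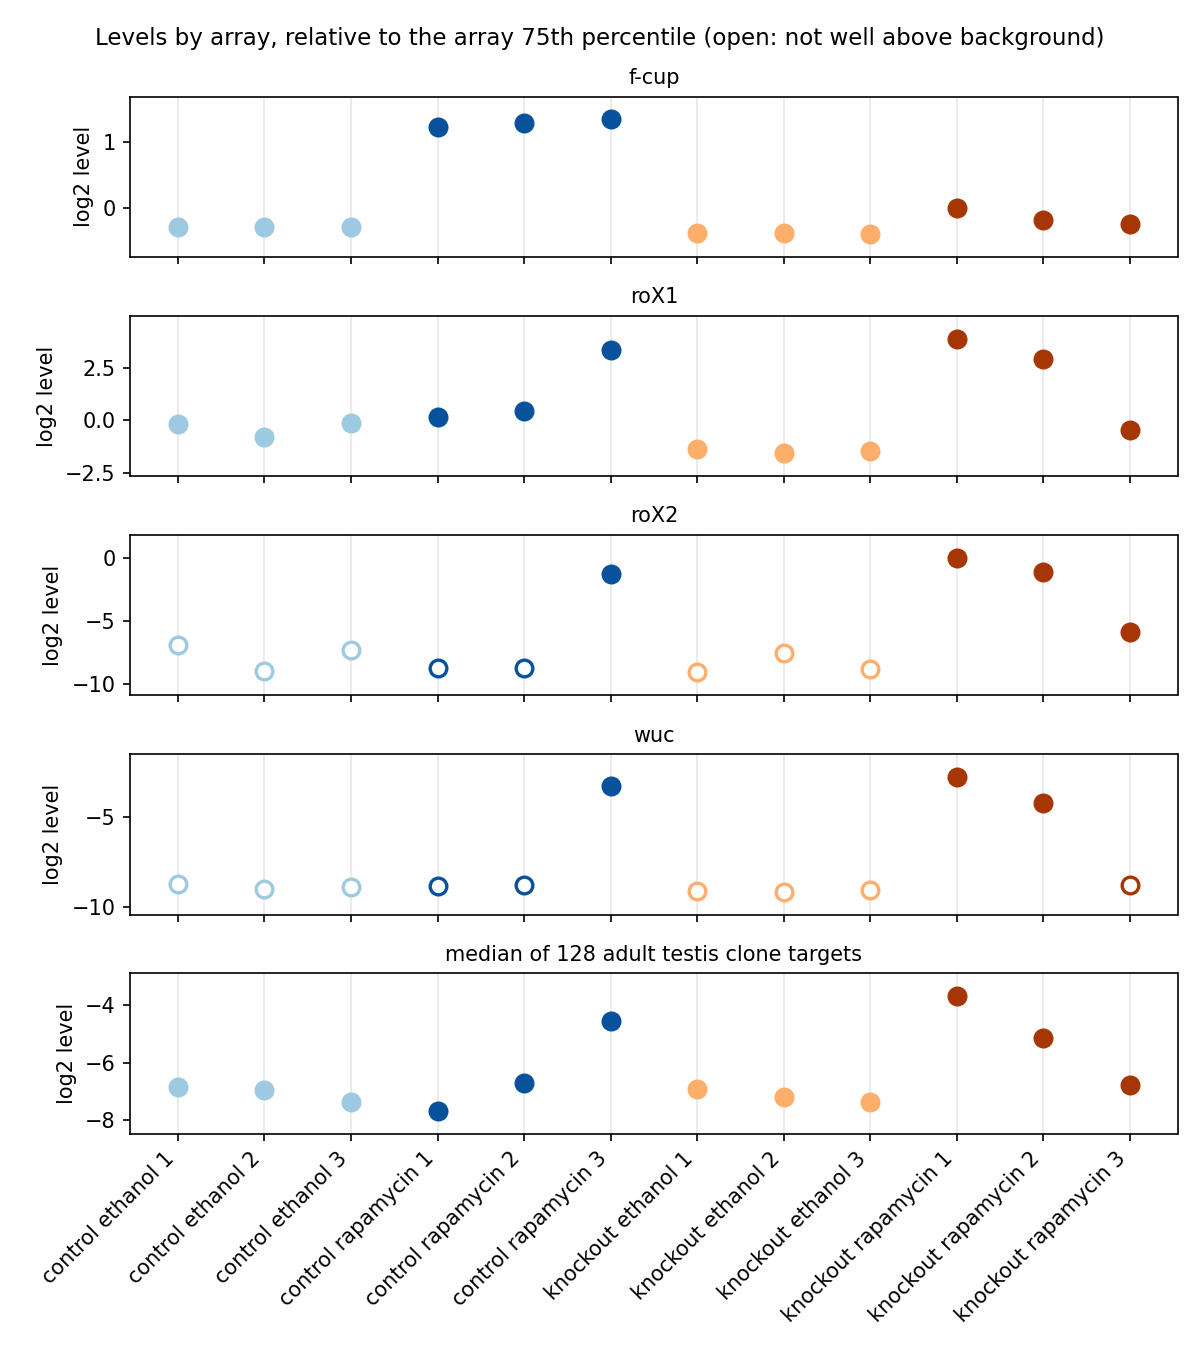
Levels on each of the 12 arrays (x axis) of f-cup, roX1, roX2, wuc and the median of 128 targets named by adult testis clones (y axes, log2 signal relative to the array's 75th percentile), 1 panel per measure, coloured by group, with open points in the single-gene panels where the probe was not well above background. roX1, roX2, wuc and the testis clones are high on control rapamycin 3 and knockout rapamycin 1 and 2, while f-cup is high on the 3 control rapamycin arrays.

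Within the control rapamycin group, array 3 had high roX levels and arrays 1 and 2 did not. Array 3 exceeded the mean of the other 2 by 3.05 for roX1 and by 7.42 for roX2, and for f-cup by 0.09. For 32.8% of all targets, and for 79.7% of the testis clone targets, this difference was larger than for f-cup. The 2 control arrays without roX2 signal stood at 1.23 and 1.29, against 1.35 on array 3. The place of array 3 depended on the scaling. With median centring array 3 was the lowest for f-cup, at 4.64 against 4.93 and 4.97 on arrays 1 and 2. With no scaling it was also the lowest, at 11.79 against 11.80 and 11.89. Within the knockout rapamycin group, array 3 had the lowest roX levels. Array 1 exceeded it by 4.34 for roX1, 5.84 for roX2 and 0.24 for f-cup, and array 2 exceeded it by 3.38, 4.73 and 0.06. For the testis clone targets, the median of the same differences was 1.80 and 0.54. In this group f-cup stood in the same order as both roX RNAs over the 3 arrays on the percentile scale, with differences of at most 0.24. That order held after quantile normalisation, in the deposited value table and with no scaling. With median centring it was reversed for f-cup, at 3.06, 3.26 and 3.51 on arrays 1, 2 and 3. With normexp and quantile normalisation f-cup stood at 10.431, 10.278 and 10.284.

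Without the 3 arrays on which both roX2 probes were above background, f-cup differed between rapamycin and ethanol by 1.55 ± 0.06 (log2, SE) in controls, and by 0.14 ± 0.08 in the knockout, where 1 rapamycin array remained and was taken to vary like the other groups. With all arrays these values were 1.58 and 0.24. The difference between genotypes was then -1.41 ± 0.10, and on rapamycin the knockout stood at -1.50 ± 0.08 from the control. On ethanol, where no array was left out, the genotypes differed by -0.09 with an adjusted p of 0.32 by limma. With the roX2 level of each array as a covariate the difference was 0.13 in the knockout, and with the roX1 level 0.10. The rapamycin arrays that were kept still differed from ethanol in roX1. Against the ethanol mean of their genotype, roX1 was higher by 0.54 and 0.79 on control rapamycin 1 and 2, and by 1.01 on knockout rapamycin 3. On knockout rapamycin 3 roX2 was higher by 2.63, with its brighter probe well above background. On control rapamycin 1 and 2 roX2 was not well above background. The part of male tissue in the small knockout difference was otherwise not tested.

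**Figure D4:**
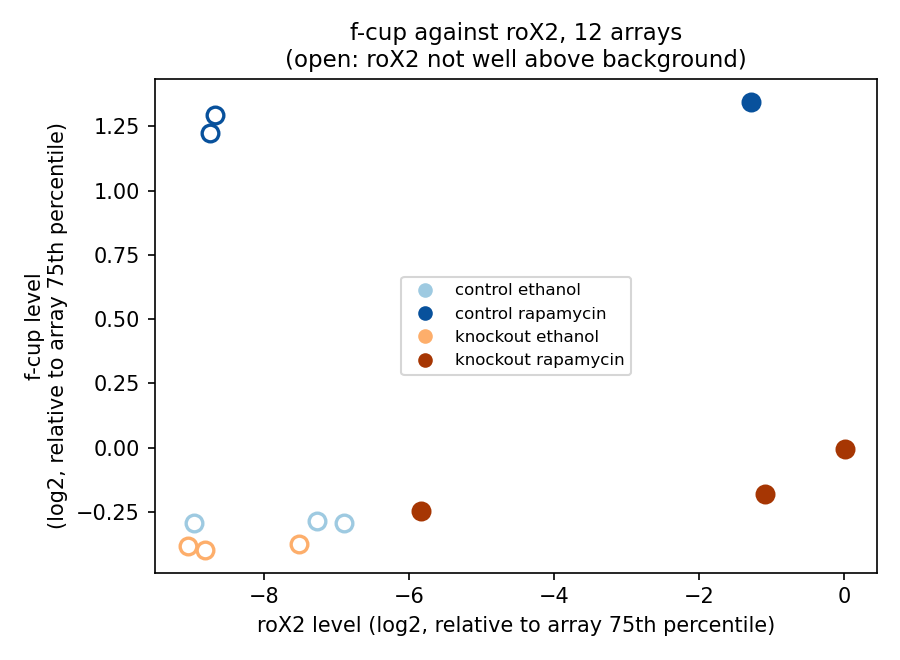
f-cup level (y axis) against roX2 level (x axis) on the 12 arrays, both as log2 signal relative to the array's 75th percentile, with colours for the 4 groups and open points where roX2 was not well above background. The 3 control rapamycin arrays lie between 1.23 and 1.35 for f-cup at roX2 levels of -8.74, -8.68 and -1.29, and the knockout rapamycin arrays lie lower at roX2 levels up to 0.0084.

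f-cup was measured with little spread between replicates. Its residual SD over the 4 groups was 0.07, against a median of 0.15 over all targets, and 7.74% of targets had a smaller one. Its largest SD was in the knockout rapamycin group, at 0.12, against 0.061 in the control rapamycin group. roX1 also had its largest SD in the knockout rapamycin group (2.28 against 1.76), and roX2 in the control rapamycin group (4.28 against 3.101).

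The targets with the profile most like that of f-cup were taken by the root mean square difference of the centred levels over the 12 arrays, as a description, among 18732 targets. The nearest was FBtr0112937, at 0.05, and the next FBtr0071339, at 0.08. The gene table used here gives no gene for either transcript ID, and whether either is a transcript of f-cup was not analysed. FBtr0112937 stood higher on rapamycin by 1.57, 1.53 and 1.62 on the 3 control arrays, and by 0.38, 0.11 and 0.10 on the 3 knockout arrays. FBtr0071339 stood higher by 1.40, 1.44 and 1.45 in controls and by 0.31, 0.08 and 0.09 in the knockout. As for f-cup, knockout rapamycin 1 was the highest of the knockout arrays for both. Both were chosen for likeness to f-cup over these same arrays, so this is no separate observation.

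Among 147 targets with a gene symbol other than a CG number, the nearest was mio, at 0.12, a subunit of GATOR2, the complex that relays amino acid supply to TORC1. It ranked 16 over all targets. mio differed between rapamycin and ethanol by 1.51 ± 0.06 (log2, SE) in controls and -0.01 ± 0.06 in the knockout. Next came atos at 0.20 (rank 87), with 1.38 ± 0.11 and 0.50 ± 0.11, and Wdr59, another GATOR2 subunit, at 0.20 (rank 94), with 1.71 ± 0.11 and 0.37 ± 0.11. Hsl, the hormone-sensitive lipase that mobilises stored fat, followed at 0.31 (rank 322), with 0.94 ± 0.08 and -0.02 ± 0.08. mxt, a translation factor that binds eIF4E, was at 0.37 (rank 553), with 0.81 ± 0.08 and 0.02 ± 0.08. All 5 had the larger estimate in controls, which follows from their likeness to f-cup. Nepl4, a neprilysin-like peptidase, had 3.16 ± 0.12 in controls and 0.40 ± 0.12 in the knockout.

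**Figure D5:**
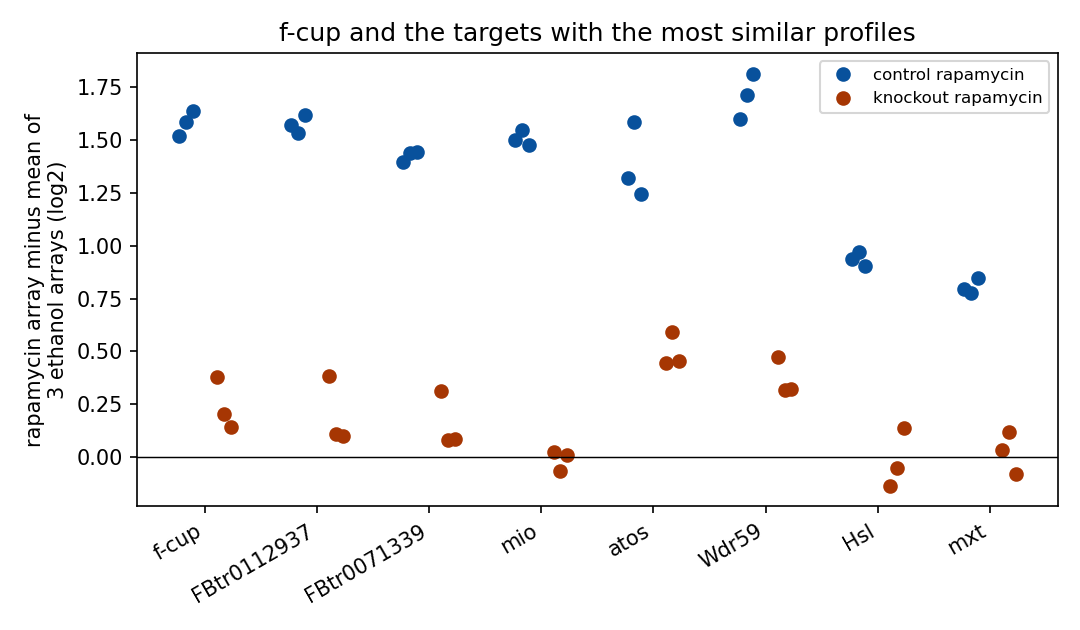
Each rapamycin array minus the mean of the 3 ethanol arrays of its genotype (y axis, log2) for f-cup, the 2 nearest targets of any name and the 5 nearest with a gene symbol (x axis), with points for arrays. For all 8 the control rapamycin arrays lie above the knockout rapamycin arrays.

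Of 22 genes of REPTOR and TORC1 signalling, listed with earlier results of these arrays known, 5 had named probes and were tested: mio, Wdr59, Wdr24, Hsl and Nepl4. In controls 4 of the 5 were called higher on rapamycin and 0 lower, with a median of 1.51 against 0.05 over all targets, and 21.3% of all targets were called higher. The exception was Wdr24, a GATOR2 subunit, at 0.12 ± 0.11. In the knockout 1 of the 5 was called higher, Wdr59, where 6.35% of all targets were called higher, with a list median of 0.06 against 0.01 over all targets. The adjusted p of Wdr59 there was 0.0456 by limma, and the call was lost under 10 of 14 alternatives, with adjusted p from 0.0341 to 0.916 over all of them. Beside these genes, f-cup had a control value between those of mio and Wdr59, and a knockout value between those of mio and Wdr59.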

How the data were processed

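RNA was labelled with Cy3 from 0.5 µg a sample, per the labels' protocols, and the submitters' processing notes name Agilent Feature Extraction 10.7 for reading the arrays. The deposited scanner intensity (processed signal, background-subtracted per the file headers) was the starting point. Spots with a feature outlier mark were left out, log2 was taken relative to each array's 75th percentile over spots that are not controls, and spots of a probe were averaged. A deposited intensity table of the same arrays was used as an alternative. Its column medians were 143.6 to 156.5, its values lay close to the quantile-normalised median signal (r of 0.9976 to 0.9999 on log2 with the scanner's median signal), and its scale is linear.

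Targets (the array's target name or the gene symbol matched through RefSeq names) were represented by their brightest probe. Of the probes, 491 matched 1 symbol, 3 several and 31668 none, and no coordinates are given because the array design uses another genome build than the gene table. A target was tested if well above background on all 3 arrays of a group, which left 18757. limma 3.58.1 in R 4.3.3 fitted 4 groups with 8 residual degrees of freedom, eBayes and Benjamini-Hochberg adjustment at 0.05, after a check on simulated data. The 12 arrays limit the precision, and the p-values set each difference against the spread between these samples.

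f-cup and all gene lists were chosen with earlier results of these data known, so rapamycin values of f-cup carry no test. Other named genes are roX1 and roX2, members of the lists that the arrays name, and the 5 symbols (CG numbers left out) and 2 targets of any name nearest in profile. Alternatives were other scalings, probe rules and filters, slide and replicate blocks, roX levels as covariates, and leaving out arrays. The one chosen after seeing the data leaves out the 3 arrays with both roX2 probes above background. No sequences were printed, since the probe's was not used here.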

Additional observations from a re-analysis of the deposited data

How the results depend on the processing

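For f-cup in controls, the rapamycin difference of 1.58 was 1.35 with median centring and 1.50 with normexp on the median signal followed by quantile normalisation, which change signal, background and scaling together, and at most 1.59 under the 16 alternatives. The knockout difference of 0.24 reversed to -0.10 with median centring, as the median of all targets shifted. On that scale knockout rapamycin 1 and 2, at 3.06 and 3.26, fell below the knockout ethanol arrays, which stood at 3.36 to 3.40. Knockout rapamycin 3 remained above them, at 3.51. The knockout difference was 0.13 with roX2 and 0.10 with roX1 as a covariate, and 0.14 without the 3 arrays with both roX2 probes above background. The difference between genotypes in the response, -1.34, was -1.45 with median centring and -1.26 with slide as a block. Values within slides 1 and 3 gave the same -1.26 by construction, since in this layout the slide block uses those same differences. The difference in the response was -1.42 with roX2 and -1.41 with roX1 as a covariate, and -1.41 without the 3 arrays. On rapamycin, the knockout minus control value of -1.43 was -1.57 with median centring, -1.50 with roX2 as a covariate and -1.50 without the 3 arrays. On ethanol, all 15 alternatives kept the sign and missed the threshold (-0.18 to -0.05, adjusted p 0.32 to 0.966 by limma). Leaving out each array in turn gave 1.55 to 1.61 in controls, 0.17 to 0.29 in the knockout, -1.41 to -1.29 for the difference, -0.10 to -0.09 on ethanol and -1.50 to -1.38 on rapamycin. The cause of these shifts was not tested otherwise.

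No pairing of samples by replicate number was seen (correlations of same-numbered deviations from -0.818 to 0.179), and a shared batch was not otherwise tested. With the replicate block the f-cup values remained 1.58, 0.24, -1.34, -0.09 and -1.43, as they must where every group holds each replicate number. Counts of called targets moved more: from 8079 to as few as 3847 in controls (median centring), from 2864 to 189 in the knockout (without the 3 arrays) and 262 (slide block), from 2742 to 329 for the difference (median centring), from 5226 to 793 between genotypes on rapamycin (slide block), and from 1187 to between 10 (slide block) and 2599 (without control ethanol 1) on ethanol, where the replicate block gave 282. The planned rule on the brighter roX2 probe removed every knockout rapamycin array and so gave no value there.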
